A study of Mus musculus with 12 samples.

Results

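The genes encoding cytosolic ribosomal proteins were followed in bone marrow-derived macrophages exposed to 3 small dicarboxylic acids. Genes were taken by their mouse symbols (Rpl or Rps followed by a digit, and Rplp0, Rplp1, Rplp2 and Rpsa, without pseudogene symbols ending in -ps and without the Rps6k kinases), and a level of at least 10 counts per 1000000 raw counts of the library (raw CPM) in at least 3 libraries was required. Of 86 matching symbols among 32285 genes in the table, 80 met that level: 47 encode proteins of the large (60S) subunit, 32 encode proteins of the small (40S) subunit, and Rpl7l1 encodes a paralogue of Rpl7 that acts in ribosome assembly. All 80 passed the filter on low counts and were tested. Just inside the level stood Rpl38, with a mean of 11.2 raw CPM and 7 of 12 libraries at 10 or more, and Rpl35 with 21.7. Just outside stood Rps19bp1 (7.64), which encodes no subunit, and Rpl22l1 (6.44), while Rps27rt (0.627), Rpl39l (0.0949), Rpl3l (0.0132) and Rpl10l (listed at 0 in all libraries) were near 0.

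The cells were macrophages grown in culture from the marrow of wild-type mice. For 16 h one group received nothing but medium (M). The others received itaconic acid (IA), methylsuccinic acid (MetSA) or malonic acid (MA), diluted from 50 mM stocks in RPMI to 5 mM. Itaconic acid is succinic acid with a methylene side group, held by a double bond. In methylsuccinic acid that side group is a saturated methyl, while malonic acid has a shorter chain. With 3 biological replicates in each of the 4 groups there were 12 libraries. The sources used here do not say whether the replicates came from separate animals, so p-values measure the spread between these samples, which may in part be technical.

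A cytosolic ribosome joins ribosomal RNAs with a fixed set of proteins, which cells make in matched amounts. The mRNAs of ribosomal proteins, and of many elongation factors, begin with a C followed by a run of pyrimidines, the 5′ terminal oligopyrimidine (TOP) motif, through which mTORC1 and LARP1 control their translation and stability. Translation is a point of control in macrophages, which change their protein output when they are activated.

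Sequence near the annotated start of 7 of the 9 genes that fell after IA is shown first, with 3 others for contrast. It is shown because the TOP motif is the feature that ribosomal protein genes share. Each line gives 30 bases around the longest run of C and T that begins with C, found by a script between 50 bases before and 50 bases after the start annotated by RefSeq on GRCm38.p6. The run is in capitals and the sequence is written 5′ to 3′ on the gene's own strand. Lines are placed around the run and need not hold the annotated start. Relative to that start, runs began at position 17 in Rpl10a, 39 in Rpl12, 40 in Rps2 and -39 in Rpl22. The lines of those genes do not hold it, and the run of Rps2 reaches the end of the searched bases. The first 7 lines are genes that were lower in IA than in M, without Rpl3 and Rpl8, followed by Rpl7a, Rpl7l1 and Rplp0.
Rpl10a (plus strand, chr17:28328574-28328603): gcgctctgCCTTCTTTCCggtttccgcggc
Rpl12 (plus strand, chr2:32961732-32961761): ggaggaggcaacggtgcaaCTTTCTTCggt
Rpl13 (plus strand, chr8:123102326-123102355): tgacgtcaCTTCCCTTTCgcctgattttga
Rpl14 (plus strand, chr9:120571501-120571530): agggcgggCCCTCTCTCTTCTCgctgagcg
Rpl22 (plus strand, chr4:152325679-152325708): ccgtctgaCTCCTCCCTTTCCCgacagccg
Rps18 (minus strand, chr17:33955646-33955675): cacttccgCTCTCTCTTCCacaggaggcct
Rps2 (plus strand, chr17:24720083-24720112): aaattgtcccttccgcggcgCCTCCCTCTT
Rpl7a (plus strand, chr2:26910787-26910816): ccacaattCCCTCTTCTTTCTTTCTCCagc
Rpl7l1 (minus strand, chr17:46782667-46782696): gaggcgggCCTCTCTaccccgcccggtgag
Rplp0 (plus strand, chr5:115559472-115559501): gcctggttCTCCTataaaaggcacacgcgg

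A run of 8 or more such bases stood near the start of 50 of the 60 ribosomal protein genes with a RefSeq window (83.3%), against 32.0% of 27025 genes with a window. The 6 letters CTTTCC stood within the same 100 bases in 31.7% of the 60 genes and in 5.43% of all genes. The letters CCGGAAG, searched on both strands over the whole window of 300 bases, stood in 41.7% and 9.93%. Runs did not separate the genes that fell after IA from the other members: the 7 with a window had runs of 8 to 14 bases with a median of 10, and the median was also 10 in the other 53, of which 43 had a run of 8 or more. Rplp0, an abundant member, had a longest run of 5 bases, and Rpl7l1 had 7. A run is a match of letters near an annotated start and was not tied to a measured transcription start here.

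Library totals ran from 46892488 to 54252486 counts, and 14113 genes were tested. All 9 macrophage markers, among them Csf1r and Adgre1, were detected. All marker levels are given in raw CPM. The macrophage markers summed to 26320 to 29130 CPM in M, 24040 to 26380 in IA, 26200 to 32990 in MetSA and 30200 to 32020 in MA. Their sum in IA lay below that in MA without overlap, as the ribosomal protein share did, but single markers differed in direction. Most of that sum was Lyz2, at 12800 to 14740 CPM in IA and 21030 to 22620 in MA, while Csf1r overlapped between those groups. The 8 neutrophil markers summed to 58.8 to 106 CPM and the 6 stromal markers to 7.14 to 39.8 CPM, with overlap between the groups. Markers of lymphocytes, erythroid cells and mast cells summed to at most 6.13, 0.219 and 1.08 CPM, with Cd3g, Hba-a2, Mcpt4 and Tpsab1 at 0 in all libraries. All 7 osteoclast markers were detected and summed to 172 to 187 CPM in M, 107 to 109 in IA, 116 to 129 in MetSA and 127 in MA. Dcstamp (54.7 to 55.6 CPM in M, 9.76 to 15.5 in IA) and Mmp9 (25.5 to 37.7 and 7.71 to 7.78) carried that fall, while Acp5 went from 2.94 to 3.69 CPM in M to 4.24 to 5.82 in IA. The 5 dendritic cell markers summed to 1.67 to 2.91 CPM in M, 6.31 to 7.47 in IA, 2.72 to 4.745 in MetSA and 2.53 to 3.40 in MA. Xcr1 carried most of the higher sum in IA (0.171 to 0.287 CPM in M, 4.26 to 4.72 in IA). Siglech was also higher (0.253 to 0.800 CPM in M, 0.8165 to 0.995 in IA), and Flt3, Ccr7 and Zbtb46 overlapped between IA and M. Their part in the ribosomal protein results was not tested.

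The 80 genes took between 1.35% and 2.01% of all counts in a library. In M they took 1.62%, 1.87% and 2.01% (mean 1.83%, SD 0.20, n = 3). In IA they took 1.35%, 1.54% and 1.57% (mean 1.49% ± 0.12), below all 3 M libraries. The shares in MA were 1.78%, 1.84% and 1.99% (mean 1.87% ± 0.11), all within the range of M. In MetSA they were 1.72%, 1.64% and 1.56% (mean 1.64% ± 0.083), and they overlapped with M and IA. These shares are of raw counts, and scaling by TMM, which sets libraries to a common middle of their genes, took part of the difference away. The TMM factors were 0.927 to 0.935 in IA and 1.05 to 1.07 in M. In bulk RNA, fewer cells of a type and less RNA per cell cannot be told apart.

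**Figure D1:**
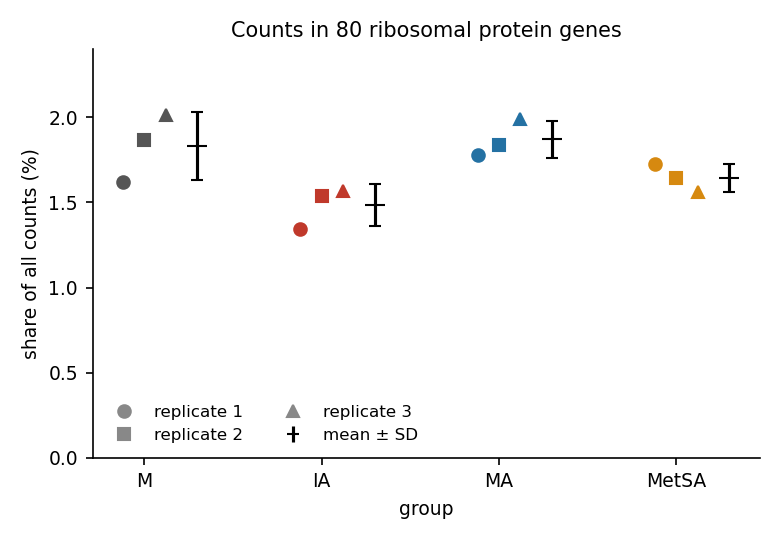
Share of all raw counts (y axis, percent) taken by the 80 ribosomal protein genes in each library, by group on the x axis, with the mean and SD of 3 libraries beside the points. The 3 IA libraries, at 1.35% to 1.57%, lie below the 3 M libraries, at 1.62% to 2.01%, and the MetSA libraries overlap with both.

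The balance between the subunits was followed next. The ratio of counts on 60S genes to counts on 40S genes was 1.48 in M (SD 0.0085), 1.49 in IA (SD 0.0055), 1.498 in MetSA (SD 0.047) and 1.51 in MA (SD 0.016). The spread was widest in MetSA, where the ratio ran from 1.46 in replicate 1 to 1.55 in replicate 3.

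Levels differed widely between members even per transcript length, given here as the mean CPM over the 12 libraries per 1000 bases of the principal transcript. The median was 226 over the 80 genes, 226 for 60S genes and 237 for 40S genes. Rpl10, an X-linked gene whose protein joins the 60S subunit late in its assembly, was highest at 899 (777 to 1087 over libraries). Rps4x, a 40S protein also encoded on the X chromosome, Rps9, the stalk base Rplp0 and Rps14 followed at 602, 592, 576 and 549, and the ranges of their libraries overlapped. The lowest levels per length were those of Rps20 (22.8), Rpl35 (23.0), Rpl38 (32.4), Rpl39 (39.98) and Rps27l (48.8). For Rps20 the annotated principal transcript is 3706 bases long with 357 coding bases, which lowers its value per length. Rpl10 shares 91.6% of its sequence with other annotated genes and Rpl35 shares 83%, so their levels are uncertain. The level per length also rose with coding length: its median was 79.2 for 10 genes with under 300 coding bases, 223 for 47 genes with 300 to under 600 and 381 for 23 genes with 600 or more.

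IA was first set against M, to see which of these mRNAs differ in macrophages given itaconic acid. Rpl3, Rpl12, Rpl10a, Rpl22, Rpl14, Rpl8 and Rpl13 of the large subunit and Rps2 and Rps18 of the small subunit fell, and Rpl7l1 rose. That is 9 of 80 genes lower, where 17.3% of all genes tested were lower, and 1 of 80 higher, where 17.9% were higher (edgeR's quasi-likelihood test, Benjamini-Hochberg adjusted p under 0.05 over all 14113 genes tested). In this fit the share of members called lower was below that of all genes tested. The 3 IA libraries were all below the 3 M libraries in 9 genes (24.2% of all genes tested) and all above in 1 (23.5%). Fold changes were negative in 64 of the 80 genes, with a median log2 fold change of -0.11 against -0.03 over all genes tested. The count of lower genes was 15 without M replicate 1 (13.9% of all genes), 5 without M replicate 3 (14.6%) and 5 without IA replicate 1 (13.8%). It was 24 without a filter on low counts (11.2% of all genes), 14 with an offset for length and GC content (18.5%), and 14, with 0 genes higher, under upper-quartile scaling (25.4%), which also moved the share of higher genes among all calls from 50.9% to 34.8%.

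**Figure D2:**
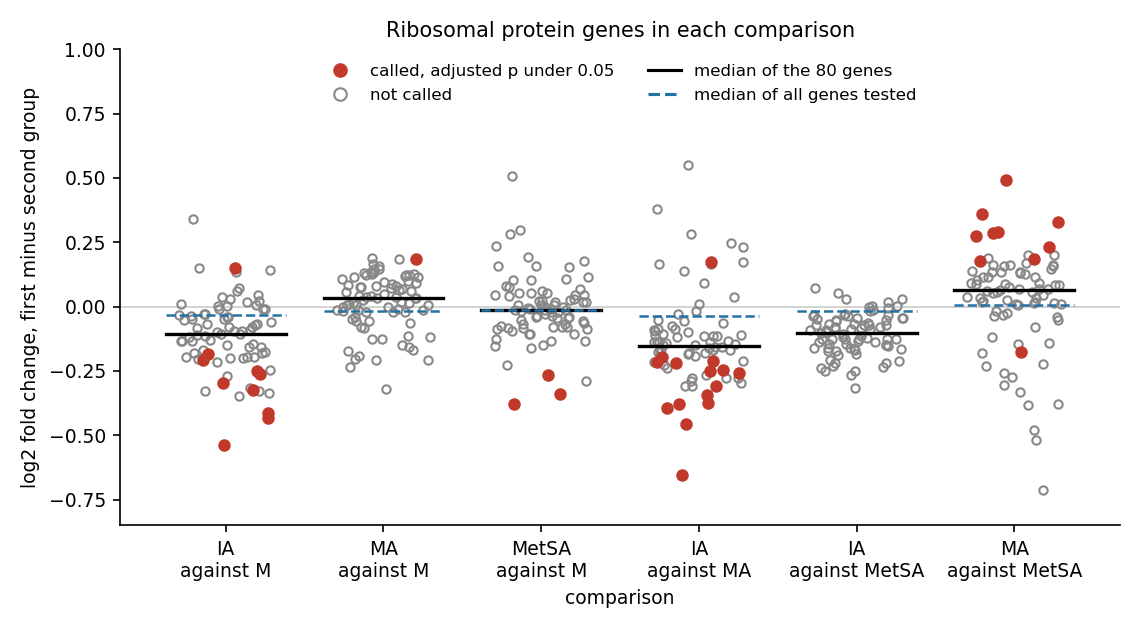
Log2 fold change (y axis) of each of the 80 ribosomal protein genes in the 6 comparisons between groups (x axis), with the gene's call shown by the colour of its point and medians drawn as lines. In IA against M the median of the 80 genes is -0.11 and 10 genes are called, and in IA against MetSA none is called.

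Rpl3, on chr15:80077791-80091868, encodes a protein that reaches towards the peptidyl transferase centre of the 60S subunit and showed the largest fall. Its level was 482, 508 and 537 CPM in M and 306, 374.5 and 369 CPM in IA. The highest IA library lay well below the lowest M library. Means were 509 ± 27.6 in M and 350.1 ± 37.96 CPM in IA (SD, n = 3), and edgeR's quasi-likelihood test gave a log2 fold change of -0.54 with an SE of 0.09 and an adjusted p of 0.00011. Of its annotated transcript sequence 79.4% lies in 100-base stretches also found in 7 pseudogenes.

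Rpl12, which forms the base of the lateral stalk beside the P proteins, was at 263, 277 and 319.6 CPM in M and at 205, 214.5 and 218 CPM in IA. The groups did not overlap, and edgeR's test gave a log2 change of -0.43 (SE 0.07, adjusted p = 0.000119). Rpl12 lies on chr2:32961559-32965345, overlaps exons of Lrsam1 on the opposite strand, and shares 46.8% of its sequence. Rpl10a, which forms the L1 stalk and shares 87.1% of its sequence, was at 178, 176 and 195 CPM in M and at 114, 150.1 and 147 CPM in IA, a log2 change of -0.41 in edgeR's test (SE 0.10, adjusted p = 0.00438). The low IA library was replicate 1.

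Rpl22, a 60S protein that is not needed for translation in general and binds other RNAs, shares none of its sequence with other annotated genes. It was at 82.9, 95.8 and 98.6 CPM in M and at 67.8, 76.4 and 77.4 CPM in IA, without overlap, and edgeR's test gave a log2 change of -0.32 (SE 0.08, adjusted p = 0.00259). Rps2, a 40S protein near the mRNA entry channel, was at 569, 539 and 560.0 CPM in M and at 439, 465 and 454 CPM in IA. The 3 IA values stood closely together and below all of M, with a log2 change of -0.30 in edgeR's test (SE 0.07, adjusted p = 0.00248). Rps2 shares 64.7% of its sequence with 36 pseudogenes and overlaps Snhg9 on the opposite strand. These 5 genes were called in all 12 fits that left out 1 library and in all 9 other settings that were fitted.

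The other 4 falls were smaller and were lost in some of those settings. Rpl8, with 1.73% shared sequence, stood at 345.5 ± 18 CPM in M and 299.6 ± 14 CPM in IA, and edgeR's test gave -0.21 (SE 0.06, adjusted p = 0.0152), a call held in 9 of 12 fits without a library. Rpl14 fell by 0.25 on the log2 scale, Rps18 by 0.26 and Rpl13 by 0.18, with adjusted p of 0.0412, 0.0366 and 0.0337, and held in 6, 7 and 8 of the 12. The libraries of Rps18 overlapped between IA and M. The rise of Rpl7l1 was small but stood on little spread: 84.2, 84.8 and 83.4 CPM in M and 92.9, 93.4 and 94.1 CPM in IA, a log2 change of 0.15 in edgeR's test (SE 0.06, adjusted p = 0.0412). It was called in 4 of the 12 fits without a library, and its partner Rpl7, an abundant 60S subunit protein, was at 465 ± 43 CPM in M and 488 ± 27 CPM in IA (adjusted p = 0.478).

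**Figure D3:**
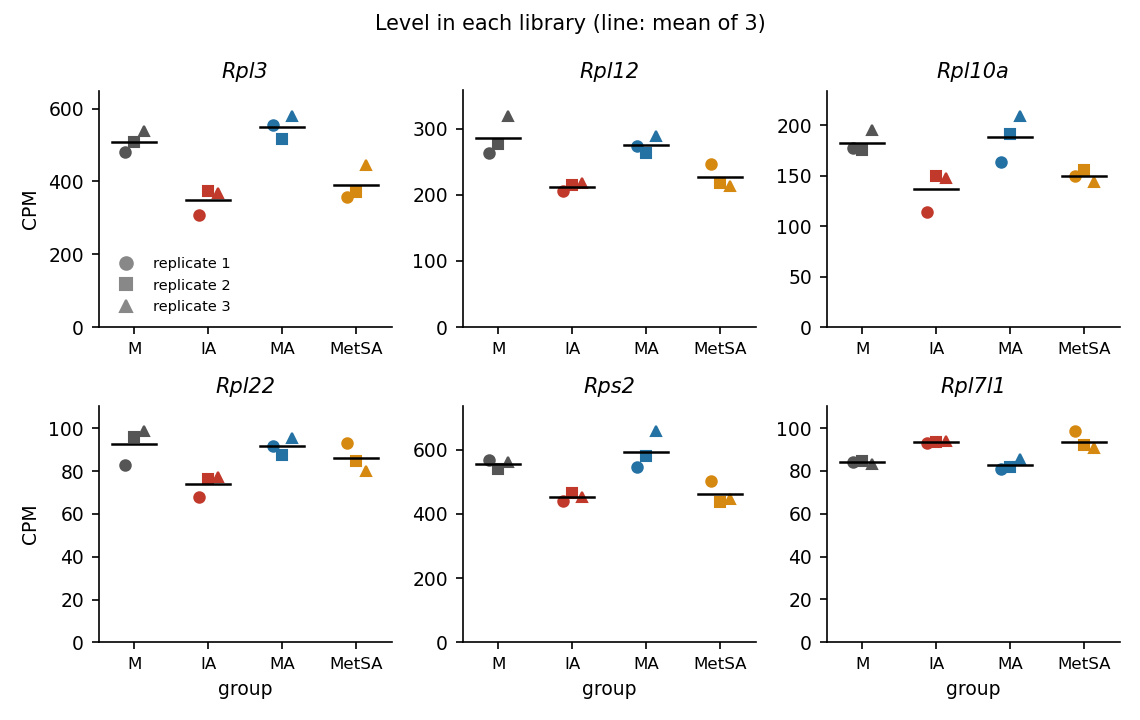
Level in CPM (y axis, from 0) of Rpl3, Rpl12, Rpl10a, Rpl22, Rps2 and Rpl7l1 in each of the 12 libraries, by group (x axis), with a line at the mean of 3. For Rpl3 the 3 IA libraries reach at most 374.5 CPM and the 3 M libraries at least 482 CPM, and the MA libraries overlap with M.

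In MetSA, 3 of the 80 genes fell relative to M and none rose, against 8.53% lower and 12.6% higher over all genes tested. At an unadjusted p under 0.05 in edgeR's test, 6 were lower and 1 was higher. The share of all genes at that threshold was not counted, so no trend is read from it. DESeq2 called 4 lower (9.69% of all genes) and 1 higher (13.7%). The 3 genes were Rpl3, Rpl12 and Rps2, all of which also fell after IA, a comparison that shares the M libraries. Rpl3 was at 357, 370.1 and 446 CPM in MetSA, all below M, and edgeR's test gave a log2 change of -0.38 (SE 0.09, adjusted p = 0.00444). Rpl12 was at 247, 219 and 213 CPM, all below M, and changed by -0.34 (SE 0.07, adjusted p = 0.00206). Rps2 was at 504, 437 and 446 CPM, all below M, and changed by -0.27 (SE 0.07, adjusted p = 0.00954), and its adjusted p reached 0.0704 at most over the other settings. Rpl10a (-0.29, adjusted p = 0.0533) and Rpl7l1 (0.16, adjusted p = 0.0547) stood without overlap between the groups but did not pass the threshold. The median log2 fold change was -0.01, the same as over all genes tested, and the counts of lower genes ran from 2 to 4 without a library. With the offset for length and GC content 8 genes were lower, against 9.83% of all genes.

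In MA, 1 of the 80 genes rose and none fell, where 10.1% of all genes tested were called in each direction and 20.3% in either. At an unadjusted p under 0.05 in edgeR's test, 5 were higher and 0 lower. The share of all genes at that threshold was not counted, so no trend is read from it. DESeq2 called 1 higher and 0 lower, against 11.1% of all genes each way. The gene was Rpl7a, a 60S protein and host of several snoRNAs, at 452, 449.6 and 495 CPM in M and 506, 509 and 574 CPM in MA, without overlap, and edgeR's test gave a log2 change of 0.19 (SE 0.06, adjusted p = 0.0492). It was called in 4 of 12 fits without a library. The median log2 fold change was 0.03 against -0.02 over all genes tested. Of 23 genes with 600 or more coding bases 21 were above 0 in MA (median 0.11), while all 10 with under 300 coding bases were below 0 (median -0.16). With the offset for length and GC content 8 genes were higher, against 11.3% of all genes.

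The 3 acids were compared with each other at the same dose and time. IA and MetSA, which differ by the double bond, were not told apart on any of the 80 genes: 0 were higher and 0 lower in edgeR's quasi-likelihood test, where 3.97% of all genes tested were higher and 2.15% lower. DESeq2 also called 0, where it called 6.47% of all genes higher and 3.08% lower. At an unadjusted p under 0.05 in edgeR's test only Rpl22 was lower and none was higher. The share of all genes at that threshold was not counted. Without a filter on low counts 5 genes were lower in IA (2.57% of all genes), and 7 were lower without M replicate 1 and MetSA replicate 3 (1.42%). Rpl22 was at 93.1, 84.7 and 80.2 CPM in MetSA, above all 3 IA libraries, with a log2 difference of -0.22 (95% interval -0.38 to -0.06, adjusted p = 0.0983). The differences of IA minus MetSA were negative in 73 of 80 genes, with a median of -0.10 against -0.02 over all genes. That median was -0.01 without IA replicate 1 or without MetSA replicate 1, -0.23 without MetSA replicate 3, and -0.03 with the offset for length and GC content. The 95% intervals lay within 0.5 log2 units of 0 for 48 of the 80 genes. Those of the other 32 reached further, down to -0.87 for Rps21 and up to 0.72 for Rpl41. For Rpl3 the interval ran from -0.34 to 0.03 and for Rps2 from -0.18 to 0.12.

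IA and MA differed in more genes. In IA, 14 of the 80 genes were lower and 1 was higher than in MA, against 16.8% and 17.8% of all genes tested. The libraries did not overlap in 30 genes lower in IA (25.7% of all genes tested) and 2 higher (23.9%). The 14 included the 9 genes that also fell relative to M, a comparison with the same IA libraries, and Rpl4, Rpl6, Rps7 and Rpsa. Rpl3 had the largest difference, with 555, 517 and 580.1 CPM in MA, all above IA, and a log2 difference in edgeR's test of -0.65 (SE 0.09, adjusted p = 1.28e-05). Rps2 was at 544, 579 and 657 CPM in MA (-0.39, SE 0.07, adjusted p = 0.000183). Rpl12 followed (-0.38, adjusted p = 0.000445). Rpl7l1 was 0.17 higher in IA (SE 0.06, adjusted p = 0.0209). The count of lower genes was 9 without IA replicate 1 and 9 without MA replicate 3, and 32 with the offset for length and GC content, where 19.0% of all genes were lower.

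MA and MetSA also differed. In MA, 9 genes were higher (among them Rpl3, Rps2, Rpl12, Rpl4, Rpl10a, Rpl14, Rpl13 and Rpl8) and Rpl7l1 was lower, against 11.6% higher and 14.7% lower over all genes tested and 26.4% in either direction. The libraries did not overlap in 14 genes higher in MA (18.5% of all genes tested) and 2 lower (20.3%). Rpl3 was 0.49 higher on the log2 scale (SE 0.09, adjusted p = 0.000307 in edgeR's test), Rps2 0.36 (SE 0.07, adjusted p = 0.000528) and Rpl12 0.29 (SE 0.07, adjusted p = 0.00601). Those 3 were called in all 12 fits without a library. The count of higher genes was 4 without MA replicate 3, and 30 with the offset for length and GC content, where 13.4% of all genes were higher. Rpl7l1 was at 81.0, 82.0 and 85.7 CPM in MA and 98.6, 92.1 and 90.5 CPM in MetSA (-0.18, SE 0.06, adjusted p = 0.0231).

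Short genes varied most between libraries of a group. They also had lower levels: the median of the mean CPM was 32.65 under 300 coding bases, 141 for 300 to under 600 and 413 for 600 or more. The parts of length and level in what follows were not tested apart. No gene with under 300 coding bases was called in any of the 6 comparisons. The 9 falls after IA included 6 of the 23 genes with 600 or more (26.1%). Among 7472 other genes of that length at 10 CPM or more, 18.9% were lower in IA than in M. The largest range of log2 CPM over the 3 libraries of a group had a median of 0.83 for the 10 shortest genes, 0.59 for the 47 of middle length and 0.27 for the 23 longest, against 0.26 over 8269 genes with a mean of at least 10 CPM. The median SE of the log2 fold change between IA and M was 0.26, 0.17 and 0.08 in those 3 classes. Among 140 other genes of under 300 coding bases at 10 CPM or more it was 0.11, and 17.1% of them were higher and 13.6% lower in IA than in M.

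Rpl41, the shortest ribosomal protein, with 75 coding bases, had the widest range, 1.38 log2 units within MetSA, where it was at 104, 95.7 and 40.2 CPM. Rpl35a ranged by 0.98 within MetSA (86.5, 69.5 and 43.9 CPM) and Rps21 by 0.97 (58.3, 45.7 and 29.8 CPM). In all 3 genes MetSA replicate 3 was the lowest of its group, and M replicate 1 was the lowest of M. For Rps29, also short, the difference of MA minus MetSA was -0.71 (95% interval -1.38 to -0.05, adjusted p = 0.116), and the groups overlapped.

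A few libraries stood apart for the short members. For members with under 300 coding bases the median deviation of log2 CPM from the mean of the 12 libraries was -0.40 in M replicate 1, -0.30 in IA replicate 1, -0.31 in MA replicate 1 and -0.26 in MetSA replicate 3. It was 0.55 in MetSA replicate 1 and 0.37 in IA replicate 3. Other genes of that length with a mean of at least 4 log2 CPM (105 genes) moved the same way but less in M replicate 1 (-0.13), IA replicate 1 (-0.11) and MetSA replicate 1 (0.18). They were near 0 in MA replicate 1 (-0.01), MetSA replicate 3 (-0.04) and IA replicate 3 (-0.0017), where the short members were not. For members with 300 to under 600 coding bases it was -0.25 in M replicate 1, -0.34 in IA replicate 1, -0.28 in MetSA replicate 3 and 0.25 in MetSA replicate 1, and 0.01 in MA replicate 1. For members with 600 or more all 12 medians lay between -0.18 and 0.21. The part of fragment length or RNA quality in these deviations was not tested. Without M replicate 1 and MetSA replicate 3 together, 35 genes were lower in IA than in M (15.9% of all genes), 7 were lower in IA than in MetSA and 3 were lower in MA than in M (9.82%).

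**Figure D4:**
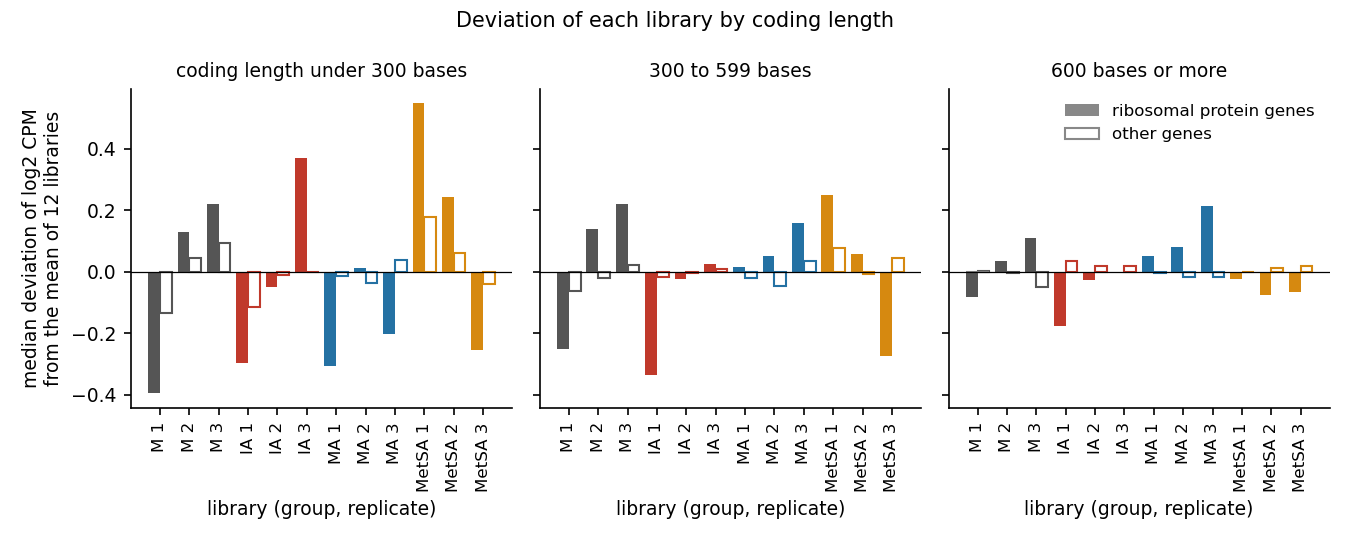
Median deviation of log2 CPM from the mean of the 12 libraries (y axis) in each library (x axis) for ribosomal protein genes (filled bars) and other genes with a mean of at least 4 log2 CPM (open bars), in 3 classes of coding length. The filled bars of the shortest class run from -0.40 in M replicate 1 to 0.55 in MetSA replicate 1, and those of the longest class from -0.18 to 0.21.

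**Figure D5:**
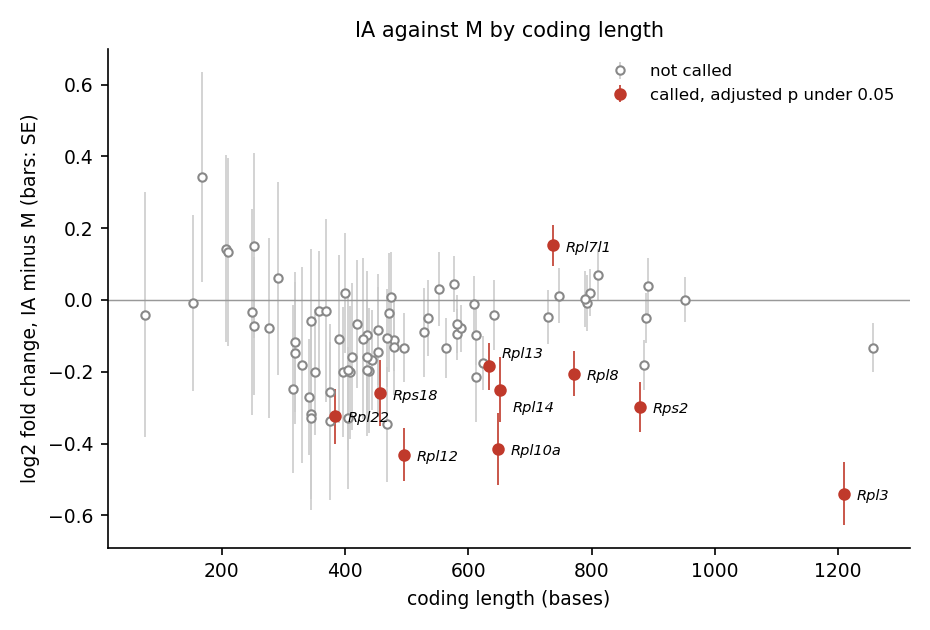
Log2 fold change of IA minus M (y axis, bars give the SE) against coding length in bases (x axis) for the 80 ribosomal protein genes, with the 10 called genes named. The median SE is 0.26 under 300 coding bases and 0.08 at 600 or more, and none of the 10 shortest genes is called.

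The P stalk recruits elongation factors to the ribosome. Its base Rplp0 was at 764 ± 36 CPM in M, 764 ± 39 in IA, 763 ± 42 in MetSA and 837 ± 43 in MA (SD, n = 3), and the interval of IA minus M, -0.13 to 0.13 on the log2 scale, was narrow. Rplp1 was at 245 ± 46, 203 ± 22, 242 ± 47 and 246 ± 9.7 CPM in the same order, and Rplp2 at 54.4 ± 12, 43.7 ± 7.6, 52.5 ± 15 and 52.9 ± 5.5 CPM. None of the 3 was called in any comparison. Rpsa, a 40S protein also known as the laminin receptor, was at 652, 658 and 681 CPM in M and at 559, 592 and 605 CPM in IA, without overlap, and its adjusted p was 0.0508 in edgeR's test. Against MA it was 0.21 lower on the log2 scale in IA (adjusted p = 0.0227).

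Paralogues of subunit proteins were set beside their partners. Rps27l, a paralogue of Rps27 known as a p53 target, was at 25.2 ± 6.1 CPM in M, 24.0 ± 2.9 in IA, 28.1 ± 6.3 in MetSA and 20.2 ± 0.99 in MA. Rps27 itself was at 40.01 ± 11, 44.5 ± 10, 49.2 ± 13 and 37.8 ± 1.2 CPM. The log2 difference of Rps27l between MA and MetSA was -0.48 (SE 0.19, adjusted p = 0.0974) with no overlap. Rpl36al was at 28.2 to 30.7 CPM over the group means and Rpl36a at 32.9 to 38.4 CPM, and neither was called. Rps27 shares 98.4% of its sequence with other annotated genes, while Rps27l and Rps21 share none.

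Shared sequence was the rule among members. Of the 80 genes 68 shared at least 10% and 36 at least 50% of their sequence in 100-base stretches with other annotated genes, mostly processed pseudogenes, and the median was 45.2%. Counting could move reads between a gene and its copies, so levels of those 68 are uncertain. Among the 12 with less, Rpl22 and Rpl8 were lower and Rpl7l1 was higher in IA than in M, and 18 of the 80 overlap an exon of another gene.

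Ribosomal proteins under other symbols were measured beside the members. Fau, which makes a fusion protein holding the 40S protein eS30, was at 143 ± 27 CPM in M, 125 ± 22 in IA, 141 ± 36 in MetSA and 133 ± 16 in MA. Rack1, a signalling scaffold on the 40S subunit, was at 526 ± 17, 495 ± 25, 503 ± 48 and 549 ± 41 CPM. Neither was called against M.

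Other genes of translation and ribosome assembly were followed in lists, some of which share genes. Their counts stand beside 17.3% lower and 17.9% higher of all genes tested in IA. In MetSA these shares were 8.53% and 12.6%, and in MA 10.1% each way. Over the other settings the lower share ran from 11.2% to 25.4% in IA, from 5.02% to 13.4% in MetSA and from 7.08% to 13.8% in MA. Of 20 other genes with TOP mRNAs, Fau and Rack1 among them, 6 were lower and 1 higher in IA than in M (median -0.13), 4 lower and 1 higher in MetSA (median -0.05), and 0 lower and 6 higher in MA (median 0.09). The 6 in MA became 3 without any 1 of the MA libraries, the 6 in IA became 3 without IA replicate 3, and the 4 in MetSA ran down to 2 without a library. Eef1g, a subunit of the elongation factor 1 complex, fell by 0.34 on the log2 scale in IA, and edgeR's test gave an SE of 0.06 and an adjusted p of 0.000202. Eef1a1, which brings aminoacyl-tRNA to the ribosome, was at 5996 ± 212 CPM in M and rose to 7293 ± 433 CPM in MA, by 0.28 in edgeR's test (SE 0.06, adjusted p = 0.00358). Vim, which encodes vimentin, was 0.24 lower in IA, 0.39 lower in MetSA and 0.35 higher in MA, and the call in IA was lost without IA replicate 3. Tpt1 was 0.25, 0.23 and 0.23 higher in IA, MA and MetSA, and all 3 calls were lost without M replicate 1.

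Among 35 initiation factors 6 were lower and 3 higher in IA, 4 and 0 in MetSA, and 0 and 2 in MA. Their medians of -0.03, -0.02 and 0.02 lay near those of all genes. The 4 in MetSA became 0 without M replicate 1 or IA replicate 3, and the 2 in MA became 0 without any 1 of the MA libraries. The eIF3 subunits Eif3l (-0.31), Eif3b (-0.25) and Eif3g (-0.31) led the falls in IA. Of 11 elongation and termination factors 4 were lower and 1 higher in IA, 3 and 0 in MetSA, and 1 and 2 in MA. Over the other settings 3 to 9, 1 to 4 and 0 to 1 were lower. The 9 in IA came under upper-quartile scaling, where 25.4% of all genes were lower. Of 20 genes that control TOP mRNAs and mTORC1, 7 were lower and 2 higher in IA, 2 and 3 in MetSA, and 2 and 1 in MA. The 7 in IA became 3 without IA replicate 2 and 4 without M replicate 1 or 3 or IA replicate 1 or 3, and the counts of 2 fell to 1 without any of several libraries. Of those 7, Eif4ebp1, Eif4ebp2 and Cnbp were called lower in all 12 fits without a library. Akt1s1, Deptor, Tia1 and Tial1 were called in 8, 2, 9 and 3 of the 12. Larp1, which binds the cap of TOP mRNAs, was at 196.5 ± 5.2 CPM in M and rose to 240.2 ± 4.4 CPM in IA (edgeR's test, adjusted p = 0.000275) and to 228 ± 8.1 CPM in MetSA, and fell to 176 ± 3.9 CPM in MA, a call kept in 4 of 12 fits without a library. Sesn2, a leucine sensor that restrains mTORC1, was 0.60, 0.28 and 0.54 higher in IA, MA and MetSA, and the call in MA was lost without M replicate 1 or MA replicate 2.

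Of 42 assembly factors 19 were lower and 0 higher in IA (median -0.20), 16 and 0 in MetSA (median -0.16), and 7 and 1 in MA (median -0.14). Over the other settings the lower count ran from 14 to 27 in IA, from 9 to 19 in MetSA (9 without M replicate 1) and from 3 to 9 in MA (3 without M replicate 1 or MA replicate 2). Dkc1, the pseudouridine synthase of H/ACA snoRNPs, was at 23.1 ± 1.5 CPM in M and fell to 12.3 ± 1.2 CPM in IA, a log2 change of -0.90 in edgeR's test (SE 0.10, adjusted p = 7.97e-07). Nop56, of C/D snoRNPs, fell by 0.63 in IA, 0.40 in MA and 0.43 in MetSA, and Heatr1 rose by 0.49 in MA. Of 14 RNA polymerase I genes 3 were lower and 2 higher in IA, 2 and 1 in MetSA, and 0 and 0 in MA, with 3 to 6, 1 to 4 and 0 to 1 lower over the other settings. The subunit gene Polr1b fell by 0.61 in IA and 0.45 in MetSA.

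Of 14 chaperones and importers of ribosomal proteins that were tested, 6 were lower and 1 higher in IA, 4 and 0 in MetSA, and 3 and 1 in MA. The 3 in MA became 1 without M replicate 1 or MA replicate 3. Grwd1, the chaperone of Rpl3, was at 18.1 ± 1.4 CPM in M and fell to 10.6 ± 1.5 in IA, 14.2 ± 1.1 in MA and 11.3 ± 1.3 in MetSA. The adjusted p were 2.67e-05, 0.035 and 0.00021 in edgeR's test, and the call in MA was kept in 7 of 12 fits without a library. Myc, a transcription factor that drives ribosome production, was at 28.9 ± 3.5 CPM in M and fell to 11.3 ± 0.85 in IA (-1.36 on the log2 scale, SE 0.10, adjusted p = 2.28e-09 by edgeR), 17.9 ± 0.75 in MA and 15.6 ± 1.1 in MetSA. Cdkn1a, a p53 target, was 0.82 higher in IA and 0.60 higher in MetSA and 0.20 lower in MA, the last kept in 3 of 12 fits without a library. Mdm2 was 0.28 higher in IA. Trp53 was 0.19 lower in IA, a call kept in 4 of 12 such fits and lost with DESeq2, and 0.26 lower in MA, kept in 10 of 12. Among 7 snoRNA host genes tested, Zfas1, which carries a TOP motif, was 1.30 higher in IA and 1.00 higher in MetSA, and Snhg1 was 0.86 and 0.65 lower, and in MA none of the 7 was called.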

How the data were processed

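Poly(A) RNA of 12 libraries (4 groups of 3) was sequenced. The table deposited by the authors holds raw read counts, 1 whole number per gene and library. STAR and featureCounts on mm10 are named per the submitters' processing notes, without versions; the annotation, the strand setting and the rule for multi-mapping reads are not given there. All 12 columns were matched to samples by name. Groups and replicate numbers came from the titles. The members and the gene lists were chosen with earlier results of these data known.

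Genes passing filterByExpr (14113, holding 99.98% of counts) were tested with edgeR 4.0.16 (quasi-likelihood, robust, TMM scaling) in 1 fit of the 4 groups, with 8 residual degrees of freedom, no covariate, and Benjamini-Hochberg adjustment over all genes tested. Calls are at an adjusted p under 0.05. CPM use TMM library sizes, and log2 CPM a prior count of 2. R 4.3.3, limma 3.58.1, DESeq2 1.42.0 and mgcv 1.9.3 were used. On simulated counts of IA against M (14113 genes, 200 changed), 74% of genes changed by -1 on the log2 scale, 56% by -0.5, 52% by 0.5 and 70% by 1 were recovered, with 8 false calls.

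Transcript and coding lengths, positions and shared sequence (100-base stretches) come from GENCODE M21 on GRCm38; start windows come from RefSeq. No libraries of a group were near-identical: chi-square over degrees of freedom between them was 9.14 to 55.6. Genes named were, in each comparison with M, up to 6 called members in each direction with the smallest adjusted p, up to 4 between acids, paralogues and their partners, P-stalk genes, Rpsa, the 5 highest and 5 lowest per length, the 3 widest ranges, Fau and Rack1, and up to 3 genes of each list in each comparison with M. Other called members, single marker genes, Rps29, Larp1 and further values of list genes in a second comparison were named after their values were seen. So were the genes of TOP mRNA and mTORC1 control that were lower in IA. Alternatives were other scalings and filters, DESeq2, a replicate block, halved counts, a length and GC offset, members with under 10% shared sequence, leaving out each library, and, chosen after seeing the data, leaving out M replicate 1 and MetSA replicate 3 together. Some genes that these rules select are not reported here.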

Additional observations from a re-analysis of the deposited data

How the results depend on the processing

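Counts below are of ribosomal protein genes called. A percentage in parentheses is the share of all genes tested that was called in that direction under the same setting. Upper-quartile scaling gave 0 higher (13.6%) and 14 lower (25.4%) for IA against M. It gave 0 higher for MA against M (9.42%), 6 lower for MetSA against M (13.4%) and 0 higher for IA against MA (14.0%). In MA against MetSA 18 were higher (15.0%) and 0 lower (12.5%). Without a filter on low counts there were 24 lower for IA against M (11.2%). For MA against M 0 were higher (6.62%) and 1 lower (7.08%), and for MetSA against M 3 were higher (8.34%) and 5 lower (5.997%). For IA against MA 4 were higher (11.5%) and 28 lower (10.8%), and for IA against MetSA 5 were lower (2.57%). For MA against MetSA 10 were higher (7.82%) and 11 lower (9.66%). The filter of 10 CPM in 3 libraries gave 0 higher for IA against M (22.0%). DESeq2 gave 1 higher for MetSA against M (13.7%) and 2 lower for MA against MetSA (15.4%). The offset for length and GC gave 14 lower for IA against M (18.5%) and 8 higher for MA against M (11.3%). It gave 8 lower for MetSA against M (9.83%), 32 lower for IA against MA (19.0%) and 30 higher for MA against MetSA (13.4%). Without M replicate 1 and MetSA replicate 3, chosen after seeing the data, 0 were higher (17.0%) and 35 lower (15.9%) for IA against M. In MA against M 0 were higher (9.8%) and 3 lower (9.82%). Lower genes then numbered 24 for IA against MA (18.2%), 7 for IA against MetSA (1.42%) and 4 for MA against MetSA (15.0%). Among the 12 genes with under 10% shared sequence, in the fit reported above, 2 were lower for IA against M (17.3%) and 0 higher for MA against M (10.1%). Of these 12 genes 0 were lower for MetSA against M (8.53%), 3 lower for IA against MA (16.8%) and 2 higher for MA against MetSA (11.6%). The 12 genes took 0.244%, 0.199%, 0.251% and 0.218% of counts in M, IA, MA and MetSA. The cause of these shifts was not tested, apart from the smaller number of genes in the last.

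Leaving out each library gave 0 to 1 higher (15.1% to 18.7%) and 5 to 15 lower (11.4% to 18.1%) for IA against M. In MA against M 0 to 2 were higher (7.46% to 10.8%) and 0 to 1 lower (7.085% to 11.2%). In MetSA against M 0 to 1 were higher (9.61% to 12.6%) and 2 to 4 lower (5.02% to 8.46%). In IA against MA 0 to 1 were higher (15.0% to 18.4%) and 9 to 16 lower (12.35% to 17.6%). In IA against MetSA 0 were higher (2.21% to 4.43%) and 0 lower (0.669% to 2.50%). In MA against MetSA 4 to 10 were higher (8.72% to 11.9%) and 0 to 2 lower (12.1% to 15.0%). The median log2 fold change ran from -0.21 to -0.01 for IA against M, from -0.20 to -0.08 for IA against MA, from -0.23 to -0.01 for IA against MetSA, from -0.08 to 0.12 for MA against M, from -0.13 to 0.09 for MetSA against M and from -0.03 to 0.15 for MA against MetSA, so its sign was not fixed in the last 3. Upper-quartile scaling moved the share of higher genes among all calls from 59.7% to 42.2% for MetSA against M, from 51.5% to 37.5% for IA against MA, from 64.8% to 54.2% for IA against MetSA and from 44.1% to 54.5% for MA against MetSA. Over the named members 510 called values kept their call, 57 lost it, and none turned its direction; 97 uncalled values became called.

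With the replicate number as a block there were 1 higher (19.8%) and 11 lower (19.2%) for IA against M. In MA against M 2 were higher (11.5%) and 0 lower (11.6%), and in MetSA against M 1 was higher (14.4%) and 4 lower (10.6%). In IA against MA 1 was higher (19.5%) and 18 lower (18.65%), and in MA against MetSA 12 were higher (13.6%) and 1 lower (16.25%). Deviations of same-numbered libraries correlated by 0.012 to 0.17, with 2 of 18 pairs over 0.1. Those of the 36 differently numbered pairs correlated by -0.11 to 0.023, and 35 of 36 best matches were with the own number. That is a hint of pairing from the data and not the design. The labels do not say what the numbers mark, so the fit reported above has no pairing and ignores anything the same-numbered libraries share. Halved counts and DESeq2's size factors within edgeR kept every count within 1.5 times.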
